A study of Mus musculus with 6 samples.

Results

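The 34 genes described here encode endoplasmic reticulum (ER) chaperones, the signalling proteins of the unfolded protein response and the machinery of ER-associated degradation (ERAD). They were taken as a list of mouse symbols, all 34 of which matched an Ensembl identifier among the 55487 genes counted, and all 34 were among the 12741 genes with enough counts to be tested. RNA was sequenced from hepatocytes, the cells that make up most of the liver's mass, of wild-type (WT) mice and of mice homozygous for AEG-1-C75S, with 3 libraries per genotype. AEG-1, the product of *Mtdh*, is anchored in the ER membrane, and C75S puts a serine in place of a cysteine at a position that the study's title ties to palmitoylation, the attachment of a fatty acid. Mice of both genotypes descended from matings between heterozygotes and were 6 to 8 weeks old, RNA was taken 48 h after the hepatocytes were isolated, and all 6 libraries carry the treatment label Control. No group was given an agent that disturbs the ER, so the comparison asked how the resting levels of these transcripts differed between the genotypes. Whether each library represents a mouse of its own is not given in the labels. Here n is the number of libraries, and the p-values measure only the spread between these samples.

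Proteins bound for secretion fold in the ER with the help of chaperones of the Hsp70, Hsp90 and lectin families and of enzymes that form disulphide bonds, and hepatocytes, which secrete most plasma proteins, carry this machinery at a high level. When unfolded proteins build up, 3 membrane sensors signal to the nucleus: IRE1 (*Ern1*) splices the mRNA of the transcription factor XBP1, ATF6 is cut to release its own transcription factor domain, and PERK (*Eif2ak3*) phosphorylates eIF2alpha, which lowers translation in general and raises that of ATF4. ATF6 and spliced XBP1 switch on chaperones and ERAD factors, partly through ER stress response elements in promoters, and ERAD carries proteins that fail to fold back to the cytosol for the proteasome.

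To show the letters through which ATF6 and XBP1 are known to act, promoters of the 34 genes were searched for the ER stress response element (ERSE: CCAAT, any 9 bases, CCACG) and its shorter form (ERSE-II: ATTGG, any 1 base, CCACG). The windows ran from 250 bases before to 50 bases after the RefSeq transcript start, in build GRCm38.p6, and both strands were read. A window was found for 29 of the 34 genes. An ERSE was present for 9 of the 29, or 31%, against 0.137% of 27025 genes with a window of the same length, and an ERSE-II for 2, or 6.9%, against 0.0444%. The matches follow, each written 5′ to 3′ on the strand that reads as the motif, with the fixed letters of the motif in capitals.
Derl3 (chr10:75893242-75893260, minus strand): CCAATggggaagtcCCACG
Creld2 (chr15:88819520-88819538, minus strand): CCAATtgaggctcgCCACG
Hspa5 (chr2:34772025-34772043, plus strand): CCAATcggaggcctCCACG
Calr (chr8:84847075-84847093, plus strand): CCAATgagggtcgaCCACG
Hsp90b1 (chr10:86705638-86705656, minus strand): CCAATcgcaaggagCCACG
Hsp90b1 (chr10:86705533-86705551, plus strand): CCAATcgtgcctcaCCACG
Pdia6 (chr12:17266491-17266509, plus strand): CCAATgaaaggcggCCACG
Canx (chr11:50325800-50325818, minus strand): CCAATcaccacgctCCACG
Dnajc3 (chr14:118937827-118937845, plus strand): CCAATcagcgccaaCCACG
Syvn1 (chr19:6046532-6046550, plus strand): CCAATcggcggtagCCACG
Herpud1 (chr8:94386377-94386387, plus strand): ATTGGgCCACG
Dnajb11 (chr16:22857852-22857862, plus strand): ATTGGcCCACG
Among chaperones and folding enzymes 7 of 14 genes with a window held an ERSE, and among the other genes 2 of 15 did. *Hsp90b1*, the ER form of Hsp90, was the one gene with a pair of exact matches, and sequences that differ from the motif were not searched. The other XBP1 and ATF6 letters searched, TGACGTGG, were in none of the 29 windows (0.714% of all genes held them), and the amino acid response core TTGCATCA was in 1, that of *Herpud1* (1.03% of all genes). A match is a description of the sequence, and no match says only that these letters are absent from this window.

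*Derl3* and *Creld2* were the 2 genes of the 34 with an adjusted p under 0.05 between the genotypes in edgeR. For both, the 250 bases before the RefSeq start are shown. Capitals mark the ERSE letters, which lie on the opposite strand in both promoters and so read CGTGG and then ATTGG.
Derl3 (chr10:75893148-75893397, plus strand): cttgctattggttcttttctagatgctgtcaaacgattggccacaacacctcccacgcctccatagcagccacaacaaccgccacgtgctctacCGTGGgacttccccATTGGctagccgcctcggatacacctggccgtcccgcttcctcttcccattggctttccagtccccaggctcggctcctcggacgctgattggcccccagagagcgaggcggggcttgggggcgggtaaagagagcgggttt
Creld2 (chr15:88819396-88819645, plus strand): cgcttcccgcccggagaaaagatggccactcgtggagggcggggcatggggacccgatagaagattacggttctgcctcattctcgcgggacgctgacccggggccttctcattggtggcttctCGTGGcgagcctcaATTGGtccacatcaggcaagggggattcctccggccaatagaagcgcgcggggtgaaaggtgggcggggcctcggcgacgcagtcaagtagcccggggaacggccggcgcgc
In *Derl3* the element lay at positions -156 to -138 from the transcript start, and in *Creld2* at -126 to -108.

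The libraries held 16944723 to 21044292 counts on genes, and the 34 genes together took 0.636% to 0.724% of them. *Mtdh* itself was at 197 ± 5.17 CPM in WT and 200 ± 10.5 in C75S (counts per 1000000 counts, TMM-scaled, mean ± SD, n = 3 each), with a log2 fold change of 0.02 (SE 0.05, adjusted p = 0.909). Counts per gene carry no information on the changed codon, so this value does not check the genotype labels. All 10 hepatocyte markers were expressed and none of them passed the test, with edgeR's unadjusted p under 0.05 for 0 higher and 2 lower, and 0 called by DESeq2 or limma-voom. Their summed level was 85640 to 93225 CPM in WT and 74999 to 89031 in C75S. The summed markers of cholangiocytes were higher in every C75S library (171 to 224 CPM) than in every WT library (143 to 155), with 5 of 9 tested. Most of that sum was *Spp1* (83.9 to 96.5 CPM in WT and 105 to 156 in C75S, not called), and *Krt19* was called higher. *Onecut1* was at 20.7 to 25.0 CPM in WT and 26.3 to 26.9 in C75S, without overlap. Its log2 fold change was 0.26 and that of *Krt7* 0.44, neither called, while *Sox9* was at -0.06, so 4 of the 5 tested were above 0. Among the defining markers *Epcam* gave 12, 3 and 4 reads in WT and 0, 1 and 2 in C75S and *Cftr* 0 in all. The Kupffer cell sum (104 to 135 CPM in WT and 97.1 to 141 in C75S, 2 of 12 tested) was nearly all *Cd68*. *Csf1r*, the other marker tested, gave 13 to 27 reads per library, and neither was called. *C1qa* gave 15, 18 and 5 reads in WT and 5, 4 and 2 in C75S, and *C1qb* 4 to 21 reads per library. *Marco* gave 1, 0 and 2 reads in WT and 6 in each C75S library. *Adgre1*, *Clec4f*, *Cd5l* and *Timd4* gave at most 4 reads in any library. The stellate cell sum (72.3 to 94.1 and 58.0 to 75.3 CPM, 5 of 10 tested) was mostly *Reln*, not called, and *Acta2* was called higher. The endothelial sum (93.3 to 119.9 and 72.3 to 94.6 CPM, 9 of 12 tested) held markers that went both ways. *Flt1* was below WT in every C75S library (51.1 to 67.6 against 30.3 to 40.4 CPM) at a log2 fold change of -0.75, called by DESeq2 and not by edgeR (adjusted p = 0.0655), while *Pecam1* and *Lyve1* were at 0.70 and 0.85, not called. In bulk samples, a change in the share of a cell type and a change in RNA per cell cannot be told apart.

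Expression of the 34 genes was compared between the genotypes with edgeR's quasi-likelihood test over all 12741 genes, and a gene was called at a Benjamini-Hochberg adjusted p under 0.05. *Derl3* and *Creld2* were called, both higher in C75S, and no gene of the 34 was called lower. These 2 of 34 are 5.88%, beside 3.11% of all genes tested called in either direction, with 1.74% called higher and 1.37% lower. DESeq2 and limma-voom called these same 2 and none lower, and each of the 3 tools gave 10 of the 34 an unadjusted p under 0.05 with a higher level in C75S and 0 with a lower one, beside 13.4% of all genes tested at that level in edgeR, or 6.91% counting those that were higher. The other 32 genes had log2 fold changes from -0.09 to 0.29. Of all 34, 28 had a log2 fold change above 0 and 6 below it, whereas 49.1% of all genes tested were above 0, and the median was 0.09 against -0.003 over all genes.

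**Figure D1:**
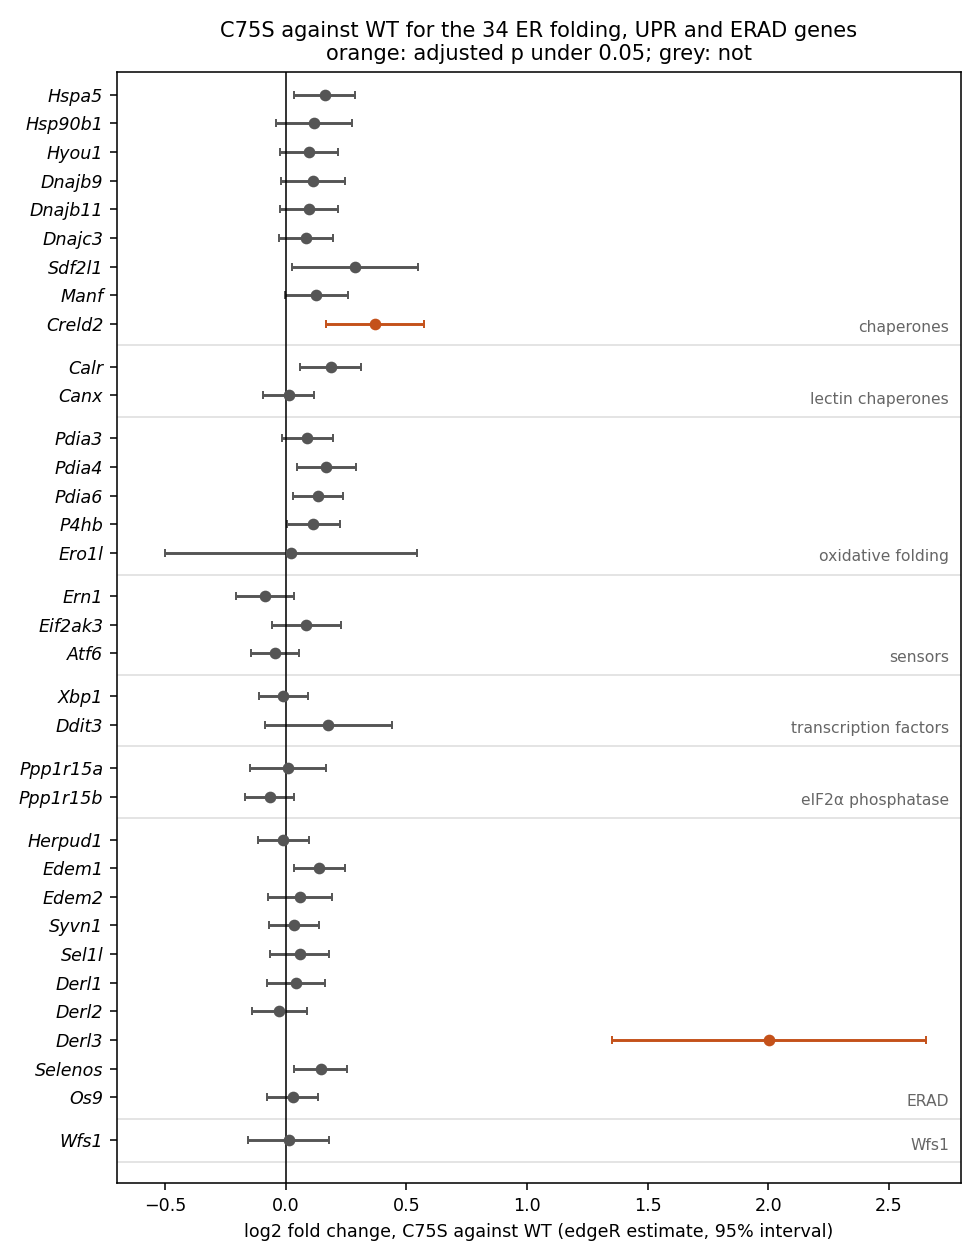
Log2 fold change of C75S over WT (horizontal axis) for each of the 34 genes in order of role, with points for the edgeR estimate and bars for its 95% interval (n = 3 libraries per genotype). *Derl3* stands apart at 2.00 and *Creld2* follows at 0.37, while the other genes lie between -0.09 and 0.29.

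Chaperones and folding enzymes, 16 genes in all, had log2 fold changes above 0 without exception. Their median log2 fold change was 0.12, with a range of 0.01 to 0.37, and *Creld2* alone among them was called, while 7 of the 16 had an unadjusted p under 0.05. The 18 other genes had a median of 0.03, with 12 above 0 and 1 called. Genes of one pathway share their regulation and the libraries they were measured in, so these counts describe the list and carry no test.

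*Hspa5* encodes BiP, the Hsp70 chaperone of the ER that also holds the sensors inactive. It was at 700, 753 and 804 CPM in the WT libraries and at 833, 782 and 908 CPM in the C75S libraries. All C75S values but that of replicate 2 lay above the WT range. The log2 fold change was 0.16 (95% interval 0.04 to 0.29), with an adjusted p of 0.192.

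*Hsp90b1*, the ER Hsp90 also known as GRP94, was at 512, 528 and 636 CPM in WT and at 597, 570 and 651 CPM in C75S. WT replicate 3 lay within the C75S values, and the log2 fold change was 0.12 (95% interval -0.04 to 0.27, adjusted p = 0.542). The annotation places other transcribed units on the same strand over 217 bases of *Hsp90b1*, 105 of *Ddit3* and 14 each of *Manf* and *Pdia4*.

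*Creld2*, a small secreted ER stress protein with disulphide isomerase activity, rose. It was at 19.4, 16.02 and 17.5 CPM in WT (counts of 409, 329 and 361) and at 22.9, 20.5 and 25.1 CPM in C75S (counts of 400, 432 and 469). Every C75S library was above every WT library, and the means were 22.8 ± 2.30 and 17.6 ± 1.70 CPM (SD, n = 3 each). The rise was 1.29-fold, or 0.37 on the log2 scale with an SE of 0.10 (95% interval 0.17 to 0.57, adjusted p = 0.0344 in edgeR). The call depended on single libraries, since the adjusted p was 0.103 when C75S replicate 1 was left out, 0.205 for C75S replicate 3, 0.197 for WT replicate 2 and 0.110 for WT replicate 3. The gene (ENSMUSG00000023272) lies at chr15:88819646-88826683 on the plus strand of GRCm38. Of the genes within 50 kb, picked after the values were seen, 3 were tested and none was called by edgeR, namely *Alg12* at a log2 fold change of -0.03, *Pim3* at -0.15, with an unadjusted p of 0.0169, and *Zbed4* at -0.24.

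The partners of BiP were measured next, and none of them was called. *Dnajb9*, an Hsp40 protein that brings BiP to IRE1, was at 49.9, 44.2 and 50.1 CPM in WT and at 53.4, 50.8 and 51.9 CPM in C75S. Every C75S value was above every WT value, by a narrow margin, and the log2 fold change of 0.11 did not pass the test (adjusted p = 0.482). *Dnajb11* and *Dnajc3*, which also carry J domains, had log2 fold changes of 0.10 and 0.08. *Hyou1*, a large Hsp70 that exchanges nucleotide on BiP, stood at 0.10, and *Sdf2l1*, a partner of *Dnajb11*, at 0.29 (95% interval 0.03 to 0.55, adjusted p = 0.300). *Manf*, a secreted protein that binds BiP, was at 0.13 (adjusted p = 0.395).

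Calreticulin (*Calr*) and calnexin (*Canx*) hold newly made glycoproteins by their sugars. *Calr* was at 664, 708 and 796 CPM in WT and at 787, 806 and 874 CPM in C75S, so that WT replicate 3 lay above C75S replicate 1. Its log2 fold change was 0.19 (95% interval 0.06 to 0.31), with an adjusted p of 0.125. *Calr* was the member nearest to the threshold after the 2 called genes, and the adjusted p was 0.0272 without WT replicate 3 and 0.0430 with library-size scaling. *Canx* was at 390, 409 and 436 CPM in WT and at 405, 419 and 420 CPM in C75S, and its log2 fold change was 0.01 (95% interval -0.09 to 0.12). The difference between these partners was not tested.

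Enzymes of oxidative folding form and shuffle disulphide bonds. *Pdia6*, a disulphide isomerase, was at 182, 179 and 191 CPM in WT and at 201, 192 and 212 CPM in C75S. The genotypes did not overlap, and the log2 fold change was 0.13 (95% interval 0.03 to 0.24, adjusted p = 0.193). The isomerases *Pdia4*, *P4hb* and *Pdia3* had log2 fold changes of 0.17, 0.12 and 0.09 (adjusted p = 0.154, 0.340 and 0.483). *Ero1l*, the oxidase that recharges them and a PERK target, had the largest coefficient of variation of the 5 oxidative folding genes in both genotypes, with a range of 74.0 to 108 CPM in C75S and 80.3 to 106 CPM in WT, and its log2 fold change of 0.02 carried an interval from -0.50 to 0.54.

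**Figure D2:**
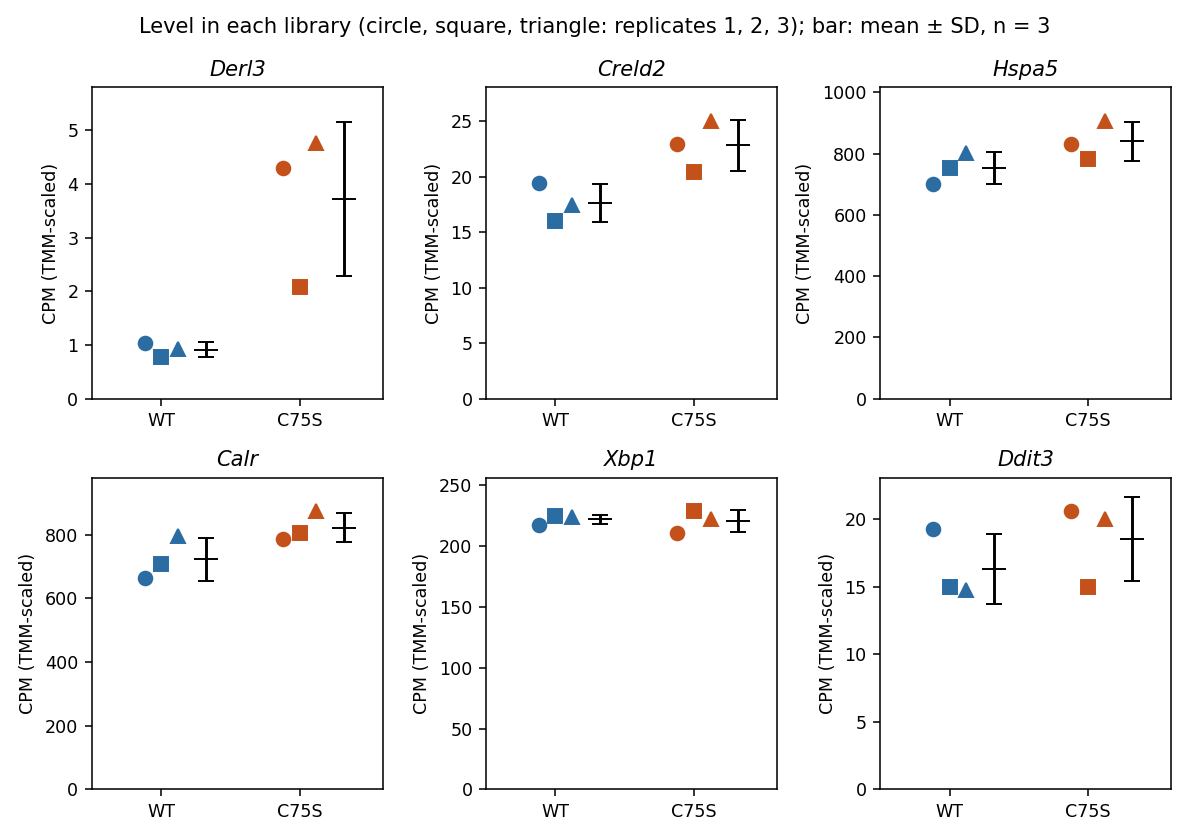
CPM (vertical axes, from 0) of *Derl3*, *Creld2*, *Hspa5*, *Calr*, *Xbp1* and *Ddit3* in each WT and C75S library, with circles, squares and triangles for replicates 1, 2 and 3 and bars for the mean ± SD (n = 3). The genotypes separate for *Derl3* (0.779 to 1.04 against 2.09 to 4.76 CPM) and *Creld2* and overlap for the other 4 genes.

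The 3 sensors had no called member, in edgeR, DESeq2 or limma-voom, and none of them had an unadjusted p under 0.05 with any of these tools. *Ern1* (IRE1) was at 76.7, 68.0 and 72.2 CPM in WT and at 67.1, 69.6 and 67.4 CPM in C75S, so its log2 fold change was -0.09 (95% interval -0.21 to 0.03). *Eif2ak3* (PERK) was at 52.1, 52.8 and 60.0 CPM in WT and at 52.7, 62.3 and 59.6 CPM in C75S, so its log2 fold change was 0.09 (95% interval -0.06 to 0.23). *Atf6* was at 149, 157 and 154 CPM in WT and at 150, 148 and 149 CPM in C75S, so its log2 fold change was -0.04 (95% interval -0.14 to 0.06). Genotypes overlapped for all 3. The sensors act through cleavage, phosphorylation and splicing, which gene counts do not read.

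The transcription factors were *Xbp1* and *Ddit3*. *Xbp1* was at 218, 225 and 224 CPM in WT and at 211, 229 and 222 CPM in C75S, with an interval of the log2 fold change from -0.11 to 0.09. The WT values lay inside the C75S range. A count per gene adds spliced and unspliced *Xbp1* mRNA together. *Ddit3*, which encodes CHOP, a factor tied to cell death after lasting stress, was at 19.3, 14.9 and 14.7 CPM in WT and at 20.6, 14.98 and 20.04 CPM in C75S. Its replicates spread widely in both genotypes, and the log2 fold change was 0.18 (95% interval -0.09 to 0.44, adjusted p = 0.603).

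*Ppp1r15a* and *Ppp1r15b* encode GADD34 and CReP, which direct a phosphatase to eIF2alpha and so undo the action of PERK. *Ppp1r15b*, the constitutive one, was at 125, 126 and 131 CPM in WT and at 119, 123 and 123 CPM in C75S. It was the one gene of the 34 with every C75S library below every WT library, and its log2 fold change of -0.07 did not pass the test (95% interval -0.17 to 0.04, adjusted p = 0.623). *Ppp1r15a*, the stress-induced one, was at 39.7, 38.8 and 34.2 CPM in WT and at 40.4, 35.1 and 37.9 CPM in C75S, with overlapping genotypes and an interval from -0.15 to 0.17.

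ERAD holds the gene with the largest shift. *Derl3* encodes Derlin-3, a membrane protein of the ER that takes part in the export of misfolded glycoproteins, and it rose from a low level. It was at 1.04, 0.779 and 0.921 CPM in WT (counts of 22, 16 and 19) and at 4.30, 2.09 and 4.76 CPM in C75S (counts of 75, 44 and 89). The lowest C75S library, replicate 2, was still above all WT libraries, and the means were 3.71 ± 1.43 and 0.915 ± 0.132 CPM (SD, n = 3 each). The rise was 4.01-fold, or 2.00 on the log2 scale with an SE of 0.31 (95% interval 1.35 to 2.65, adjusted p = 0.000322 in edgeR). It held its call in each of the 14 alternative analyses that tested it, with log2 fold changes of 1.78 to 2.30. Because plasma cells are rich in ERAD factors, their markers were counted too. The 9 plasma and B cell markers gave 1 read in all WT libraries and 9 reads in all C75S libraries, and 5 of the 9 were at 0 in every library. The part of cholangiocyte or plasma cell transcripts in the rise of *Derl3* was not tested.

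*Derl3* (ENSMUSG00000009092) lies at chr10:75893413-75895941 on the plus strand of GRCm38, shares no bases with another annotated gene and had no similar transcript in the annotation. Of the tested genes within 50 kb, again picked after the values were seen, none of 4 was called by edgeR or had an unadjusted p under 0.05: *Chchd10* was at a log2 fold change of 0.07, *Mif* at 0.08, *Smarcb1* at -0.14 and *Mmp11* at -0.63. The relatives *Derl1* and *Derl2* were far more abundant and were not called. Per kilobase of exon, WT levels were 21.2 CPM for *Derl1*, 8.91 for *Derl2* and 0.459 for *Derl3*, and even in C75S *Derl3* reached 1.86 ± 0.717 CPM per kilobase. Before division by exon length (3328 and 8049 bases), *Derl1* and *Derl2* were alike in WT, at 70.6 and 71.7 CPM. The log2 fold changes of *Derl1* and *Derl2* were 0.04 and -0.03.

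*Edem1*, a mannosidase-like protein that marks glycoproteins for disposal, was at 141, 153 and 156 CPM in WT and at 165, 162 and 169 CPM in C75S. *Selenos*, a selenoprotein that ties the Derlins to the ATPase p97, was at 87.6, 87.5 and 95.1 CPM in WT and at 101, 95.7 and 102 CPM in C75S. For both genes every C75S library was above every WT library, and neither passed the test, with log2 fold changes of 0.14 and 0.14 and adjusted p of 0.168 and 0.184. *Herpud1*, a scaffold of the ERAD ubiquitin ligase and a common marker of the response, was at 363, 386 and 375 CPM in WT and at 351, 379 and 386 CPM in C75S. Its genotypes overlapped, and the interval of the log2 fold change ran from -0.11 to 0.10. The ligase itself, *Syvn1*, and its partner *Sel1l* had log2 fold changes of 0.03 and 0.06, the lectin *Os9* 0.03, *Edem2* 0.06 and the ER membrane protein wolframin (*Wfs1*) 0.01, all with overlapping genotypes and adjusted p of 0.747 to 0.973.

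Over all 34 genes, 6 had every C75S library above every WT library (*Dnajb9*, *Creld2*, *Pdia6*, *Edem1*, *Derl3* and *Selenos*), 1 had every C75S library below (*Ppp1r15b*) and 27 overlapped. The 6 are 17.6% of the list, whereas 9.02% of all genes tested had C75S above, 8.96% had C75S below and 18% did not overlap in either direction.

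Sorted by the branch that is best known to induce them, the 9 genes placed under ATF6 had a median log2 fold change of 0.13, with 7 above 0 and *Creld2* called. The 8 genes placed under XBP1 had a median of 0.09, with 7 above 0 and *Derl3* called. The 10 genes that both branches induce had a median of 0.07, all 10 above 0 and none called. An unadjusted p under 0.05 was given to 4 of them, 4 of the ATF6 genes and 2 of the XBP1 genes, all higher in C75S. These counts were the same in edgeR, DESeq2 and limma-voom. Of all genes tested, edgeR gave 13.4% such a p, or 6.91% counting those that were higher. The 4 genes under PERK (*Ero1l*, *Ddit3*, *Ppp1r15a* and *Ppp1r15b*) had a median of 0.01, with 3 above 0, none called and none with an unadjusted p under 0.05 in any of the 3 tools. The medians moved with single libraries: that of the ATF6 genes ranged from 0.06 (without C75S replicate 3) to 0.21 (WT replicate 3 left out), that of the XBP1 genes from 0.05 (without C75S replicate 3) to 0.13 (WT replicate 3 left out), and that of the PERK genes from -0.05 (without C75S replicate 1) to 0.12 (C75S replicate 2 left out). Most of these genes answer to more than one branch, and the differences between branches were not tested.

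The promoter letters can be set beside these values. The 11 genes with an ERSE or ERSE-II had a median log2 fold change of 0.12, with 10 above 0 and a range of -0.0099 to 2.00. The 18 genes with a window but neither element had a median of 0.07, with 15 above 0 and a range of -0.09 to 0.29. Both called genes held an ERSE, and so did *Canx* and *Syvn1*, whose log2 fold changes were 0.01 and 0.03. The groups with and without an element overlapped widely and were not tested against each other. They also differed by role, since 7 of 14 chaperones and folding enzymes held an ERSE and 2 of 15 other genes did. The 16 chaperones and folding enzymes had a median of 0.12 and the 18 other genes 0.03. The part of role in this split was not tested.

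The 34 genes tended to be high or low together in particular libraries. C75S replicate 3 held the highest value of the 6 libraries for 20 of the 34 genes and the lowest for 0, whereas 15.7% of all genes tested had their highest value there. WT replicate 1 held the lowest value for 15 of the 34 and WT replicate 2 for 8, whereas 21.1% and 14.5% of all genes tested had their lowest value in these libraries. The median deviation of the 34 genes from their means over the 6 libraries was -0.08, -0.05 and 0.01 on the log2 scale in WT replicates 1 to 3 and 0.02, 0.01 and 0.10 in C75S replicates 1 to 3. WT replicate 3 thus stood level with C75S replicates 1 and 2.

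**Figure D3:**
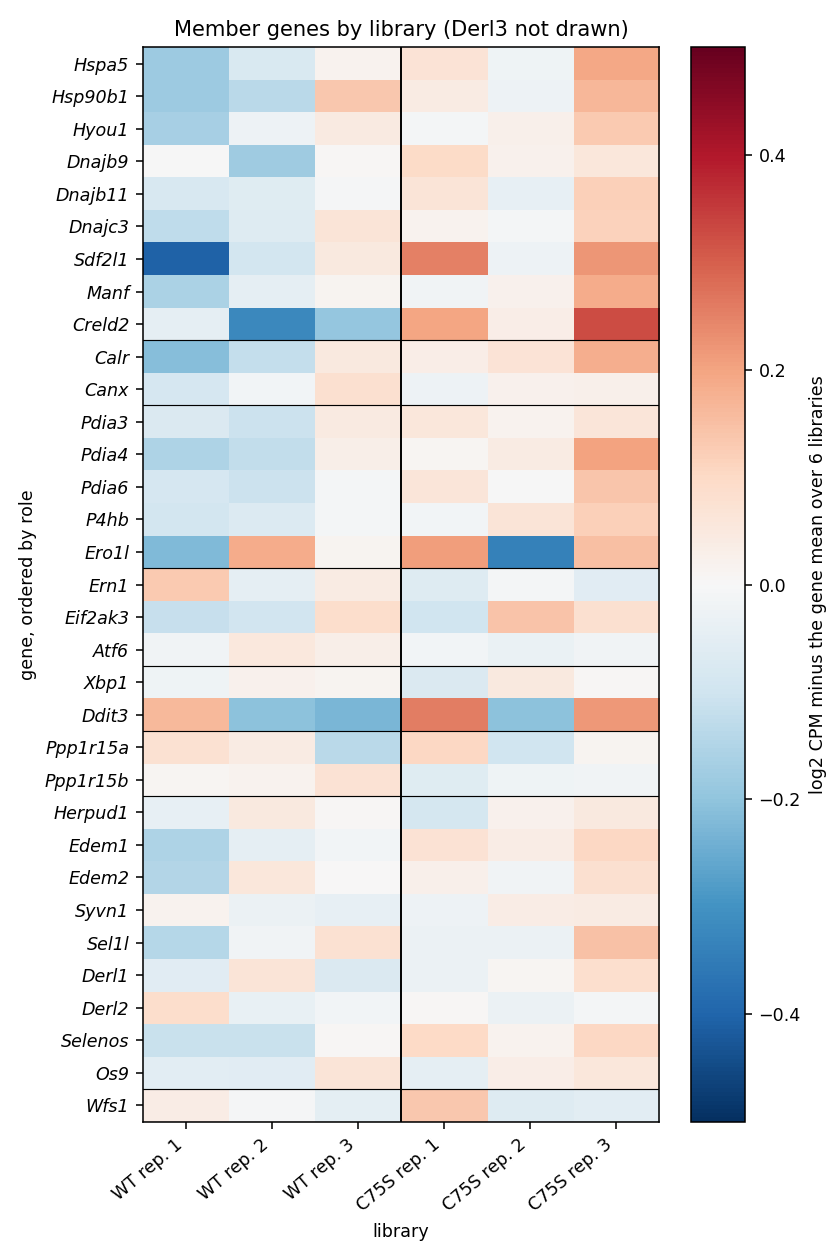
Log2 CPM of 33 genes in each library relative to the gene's mean over the 6 libraries (colour scale), with WT on the left and C75S on the right and lines between roles; *Derl3* is left out because its range would flatten the scale. Most chaperones are bluest in WT replicate 1 and reddest in C75S replicate 3, while WT replicate 3 (median deviation 0.01) is close to C75S replicates 1 and 2 (0.02 and 0.01).

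**Figure D4:**
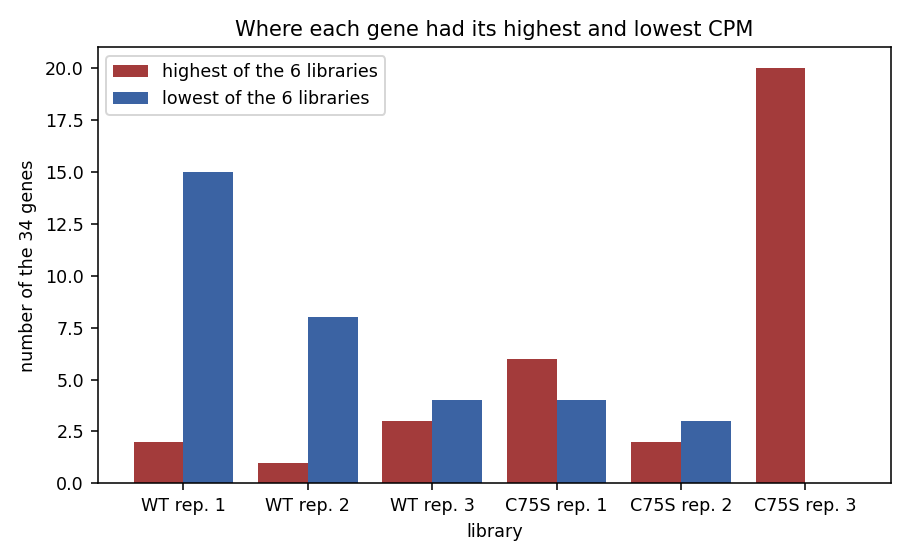
Number of the 34 genes (vertical axis) that had their highest (red) or lowest (blue) CPM in each library. C75S replicate 3 was highest for 20 genes and lowest for 0, and WT replicate 1 was lowest for 15.

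Summed over the 16 chaperones and folding enzymes, the WT libraries held 4374, 4553 and 4955 CPM and the C75S libraries 4930, 4875 and 5314 CPM. WT replicate 3 lay above C75S replicates 1 and 2, so the sums overlapped. WT replicate 1, the lowest, was also the library with the fewest genes detected, at 17412 genes with at least 1 count against 18575 in the library with most. Without it the median log2 fold change of the 34 genes was 0.05, and without C75S replicate 3 the number above 0 was 26 of 34. The part of that library difference in the shift was not tested.

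The relative levels of the genes set the scale of these shifts. Lengths are those of all annotated exons of a gene joined, which can exceed the length of its main mRNA. Per kilobase of exon, WT hepatocytes held 321 ± 9.54 CPM of *P4hb*, 251 ± 23.3 of *Calr*, 178 ± 12.3 of *Hspa5*, 161 ± 4.92 of *Herpud1* and 139 ± 16.8 of *Hsp90b1* (SD, n = 3). *P4hb* stood above *Calr*, and *Calr* above *Hspa5*, by more than their SDs, whereas the SD ranges of *Hspa5* and *Herpud1* all but met and the libraries of *Herpud1* and *Hsp90b1* overlapped. The sensors were far lower, at 16.6 CPM per kilobase for *Atf6*, 9.12 for *Eif2ak3* and 8.85 for *Ern1*, and *Xbp1* stood between at 68.4. *Derl3*, the gene with the largest fold change, had the lowest level of all 34 in both genotypes.

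**Figure D5:**
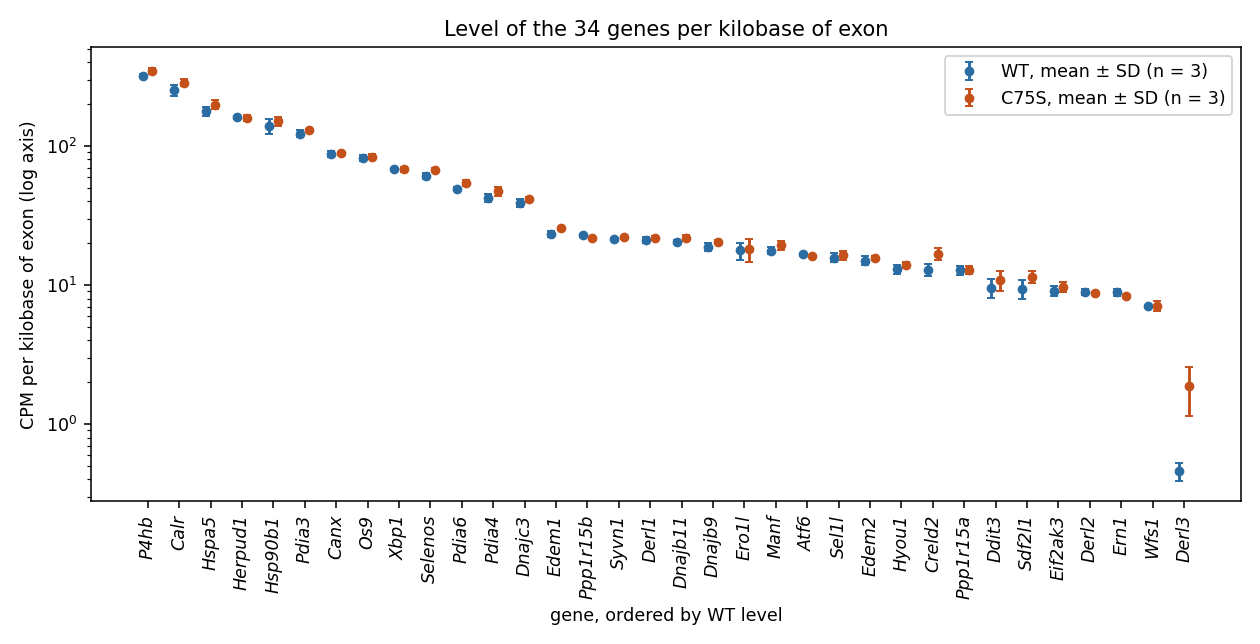
Mean level of each of the 34 genes in CPM per kilobase of exon (log axis) in WT and C75S, with bars for the SD over 3 libraries. The genes span from *Derl3*, at 0.459 in WT and 1.86 in C75S, to *P4hb*, at 321 in WT.

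Other genes of the same pathways, from lists drawn up beside the 34, were read from the same fit. Of 82 such genes 78 were tested, 45 had a log2 fold change above 0 and 1 was called, or 1.28%, with a median of 0.03. edgeR and limma-voom gave 9 of them an unadjusted p under 0.05 with a higher level and 5 with a lower one, and DESeq2 6 and 4, and all 3 tools called the same single gene.

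That gene was *Pmp22*, a membrane protein whose mRNA is known as a substrate of the RNA decay carried out by IRE1. It was at 2.18, 2.09 and 2.28 CPM in WT and at 4.19, 3.37 and 4.22 CPM in C75S, so the genotypes did not overlap. It rose by 0.84 on the log2 scale with an SE of 0.22 (adjusted p = 0.0301 in edgeR). The call was lost in 5 of the 6 fits without a library, with adjusted p of 0.127 when C75S replicate 1 was left out, 0.114 for C75S replicate 3, 0.0572 for WT replicate 1, 0.117 for WT replicate 2 and 0.0810 for WT replicate 3. Among the other decay substrates *Hgsnat* was at 0.14, *Col6a1* at 0.74 and *Ergic3* at 0.07, none called, and 5 of the 6 tested were above 0. *Bloc1s1*, the 1 tested substrate below 0, was at -0.38 and not called (adjusted p = 0.683 in edgeR). It gave 45, 33 and 24 reads in WT and 19, 26 and 27 in C75S. *Pmp22* is also expressed in cells other than hepatocytes, and the part of such cells in its rise was not tested.

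Further ER folding factors, 24 genes, had a median log2 fold change of 0.05, with 19 above 0 and 0 called by any tool. With an unadjusted p under 0.05, 4 were higher and 0 lower in edgeR and limma-voom, and 2 and 0 in DESeq2. *Erp29*, a chaperone of the disulphide isomerase family, had the smallest p, at a log2 fold change of 0.16 (adjusted p = 0.106), followed by *Nucb2*, a calcium-binding protein, at 0.39 (adjusted p = 0.145) and *Fkbp11*, a prolyl isomerase of secretory cells, at 0.22 (adjusted p = 0.297). *Nucb2* passed the threshold without C75S replicate 2 (adjusted p = 0.0478).

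Further ERAD components, 22 genes, were evenly split, with 10 above 0, a median of -0.0099 and 0 called by any tool. With an unadjusted p under 0.05, 1 was higher and 2 were lower in edgeR and limma-voom, and 1 and 1 in DESeq2. *Yod1*, a deubiquitinase, was at -0.25 (adjusted p = 0.210), *Vcp*, which encodes the ATPase p97, at 0.13 (adjusted p = 0.251) and the ubiquitin ligase *Rnf139* at -0.12 (adjusted p = 0.359).

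Targets of the PERK and ATF4 branch, 16 genes, leaned no further, with 7 above 0, a median of -0.02 and 0 called by any tool. With an unadjusted p under 0.05, 2 were higher and 3 lower in edgeR and limma-voom, and 1 and 3 in DESeq2. *Ddit4*, an inhibitor of mTORC1 signalling, had the smallest p. It was at 72.6, 81.1 and 75.4 CPM in WT and at 65.9, 64.2 and 69.0 CPM in C75S, without overlap, and its log2 fold change was -0.20 (adjusted p = 0.0563). The adjusted p of *Ddit4* in edgeR was 0.0351 without WT replicate 1 and 0.0315 with no filter. The cystine transporter *Slc7a11* was at 0.45 (adjusted p = 0.265 in edgeR, 0.00709 without C75S replicate 2 and 1.82e-05 with no filter). Both *Ddit4* and *Slc7a11* stayed uncalled in the other 13 of the 15 alternatives. *Chac1*, which degrades glutathione, was at -0.22 (adjusted p = 0.279). *Atf4* itself was at -0.04.

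Other sensors and transcription factors of the response numbered 12, of which 10 were tested, 4 were above 0 and 0 were called or had an unadjusted p under 0.05 in any of the 3 tools. Their median log2 fold change was -0.0033. *Creb3l3*, a liver relative of ATF6, had the smallest p at -0.15 (adjusted p = 0.677), followed by *Eif2s1*, which encodes eIF2alpha, at 0.06 and *Traf2*, an adaptor of IRE1, at 0.11.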

How the data were processed

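Total RNA from hepatocytes of 3 C75S and 3 WT libraries was sequenced on an Illumina HiSeq3000 after TruSeq library preparation, per the labels' protocols. The authors deposited raw read counts per Ensembl gene for each library, unstranded and for each strand. The submitters' processing notes name Trim Galore 0.6.6, STAR 2.7.9a, edgeR 3.36.0 and the builds mm10 and GRCm38; the annotation release is not given in the sources used here. The reverse-strand counts were used, since their total was 33.3 times that of the forward strand. The 4 summary rows (such as multimapping reads, 17.98% to 18.54% of reads, and unmapped reads, 4.37% to 5.81%) entered neither library sizes nor tests. Multimapping reads are therefore not in the gene counts, and what this took from genes with similar transcripts elsewhere (*Calr*, *Derl1*, *Dnajb9* and *Pdia6* among the 34) was not measured. The similar transcripts found for *Ddit3*, *Hsp90b1* and *Ppp1r15b* belong to annotated genes that overlap them at the same place.

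Genes were filtered with filterByExpr (minimum count 10, minimum total 15), scaled by TMM and tested with edgeR 4.0.16 in R 4.3.3 (robust quasi-likelihood fit, two-sided F-test, genotype as the single term), with Benjamini-Hochberg adjustment over all 12741 genes and a threshold of 0.05. The SE is the size of the log2 fold change divided by the square root of F, and 95% intervals use the matching t quantile. The biological coefficient of variation was 5.97%. The script was tested on simulated data. Alternatives were other scalings and filters, unstranded counts, a replicate block, DESeq2 1.42.0, limma-voom (limma 3.58.1) and leaving out each library. Similar transcripts were sought with BLAST 2.17.0 in GENCODE M21, which also gave positions and exon lengths. Promoter sequences are RefSeq's.

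The 34 genes, the pathway lists and the marker lists were chosen with earlier results of these data known. Values in every library are given for each of the 34 that was called or did not overlap, for the sensors and main factors, and for *Hspa5*, *Hsp90b1*, *Herpud1* and *Ppp1r15a*; those of *Calr*, *Canx* and *Ddit4* were added after their values were seen. From each other list, called genes and the 3 smallest p-values are named, with *Atf4* besides. *Bloc1s1* was added after its value was seen.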

Additional observations from a re-analysis of the deposited data

How the results depend on the processing

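The median log2 fold change of the 34 genes stayed above 0 in all 15 alternatives, at 0.05 to 0.13 when a library was left out. Without a library, 26 to 29 of the 34 were above 0, and 14 to 16 of the 16 chaperones and folding enzymes. The number of the 34 above 0 was 30 with library-size scaling, 27 with a filter at a mean of 5 CPM and 28 in the other alternatives. Genes called over the whole table numbered 201 to 355 without a library (201 without WT replicate 2, 246 without WT replicate 3, 253 without C75S replicate 1) and 363 to 573 otherwise, the latter with no filter. Of the 34, 1 was called with a filter at a mean of 5 CPM, which leaves *Derl3* untested, and 1 to 2 without a library. Other pathway genes called numbered 4 with no filter, 0 at 5 CPM and 0 to 3 without a library. *Calr* was called with no filter (adjusted p = 0.0186). With a replicate block, 480 genes and 3 of the 34 were called, *Calr* being added (adjusted p = 0.0303), and no other call of the 34 changed. Deviations of same-numbered libraries correlated by 0.02, -0.04 and 0.03, and only replicate 3 of WT matched its own number best. The labels do not say that the replicate numbers pair the samples. Whether same-numbered libraries share a batch was not tested, and these correlations cannot decide it.

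Of 509 results of single genes among the 34, 486 kept direction and side of the threshold, 4 lost a call (*Creld2*), 4 gained one (*Calr*) and 15 changed direction, all near 0 and none called; the cause was not tested. Over the fits without a library, the genes that changed direction ranged from -0.025 to 0.056 (*Canx*), -0.079 to 0.18 (*Ero1l*), -0.036 to 0.022 (*Xbp1*), -0.053 to 0.062 (*Ppp1r15a*), -0.037 to 0.030 (*Herpud1*), -0.0034 to 0.11 (*Sel1l*), -0.050 to 0.014 (*Derl2*) and -0.054 to 0.048 (*Wfs1*), and *Mtdh* from -0.022 to 0.050. With library-size scaling, *Xbp1* was at 0.0025 and *Herpud1* at 0.0014.

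With 3 libraries per genotype, the 95% intervals of most of the 34 genes were wider than their shifts, and a gene that missed the threshold is not shown to be level. Counts of 16 to 22 reads in WT limit the precision of the fold change of *Derl3*.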
